A study of Homo sapiens with 6 samples.

Results

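The linker histone H1 mRNAs H1-2, H1-3, H1-4 and H1-5 carried 32653 eIF4B cross-link counts in DoHH-2 cells and 2454 in GM01953 cells. These were 1.61% (95% interval 1.59–1.62) and 1.47% (1.41–1.53) of all counts in each cell line. Per nucleotide, the counts were densest around the stop codon, upstream of the stem-loop that ends these mRNAs. The region within 50 nt of the stop codon held 53.1% of the H1 counts in DoHH-2, or 49.6% without H1-4, and 68.7% in GM01953. With positions in place of counts it held 13.2% and 32.5%. The 4 genes were taken by name, with earlier results of these data known, from the H1 genes of the replication-dependent histone cluster on chromosome 6. They are 4 of 11905 coding genes with a count in either cell line. They held 2372 of the 1179243 positions with a count in DoHH-2, and 489 of 78474 in GM01953. H1-1 and H1-6, also on chromosome 6, are not among them and had 10 and 6 counts in DoHH-2.

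DoHH-2 is a cell line from a diffuse large B-cell lymphoma and GM01953 is a control B-cell line without tumour origin. The lines are not isogenic, so cell line and tumour origin cannot be told apart. In iCLIP, a UV cross-linking method that resolves single nucleotides, living cells are irradiated and the protein is pulled down together with its RNA. Reverse transcriptase stops at the cross-linked residue, so each cDNA marks the position of a contact. All samples were cross-linked with UVC and precipitated with an antibody to eIF4B, with 4 replicates labelled for DoHH-2 and 2 for GM01953. The tables hold 1 pooled value per position and cell line, 2033156 counts in DoHH-2 and 167197 in GM01953, a 12.2-fold difference in depth. No SD and no test between the lines could therefore be had. Intervals are Wilson intervals for shares, or log-scale intervals for ratios, and cover counting error only. A count depends on how much of an mRNA a cell holds and on how often eIF4B is cross-linked to it, and these cannot be told apart in the tables.

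Linker histones bind the DNA that enters and leaves the nucleosome, and help to fold chromatin. Most somatic H1 subtypes are made in S phase from mRNAs that have no introns and no poly(A) tail, and end instead in a conserved stem-loop bound by the stem-loop binding protein SLBP. The helicase UPF1 takes part in the fast decay of such mRNAs once DNA synthesis has stopped. eIF4B is known as a cofactor of the helicase eIF4A in translation initiation.

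The 4 genes are single-exon genes on chromosome 6 (GRCh38, GENCODE release 44). H1-2 (ENSG00000187837) lies on the minus strand at chr6:26055740-26056470 and has an mRNA of 731 nt with 639 coding nt. H1-3 (ENSG00000124575) lies on the minus strand at chr6:26234212-26234987, with 776 nt and 663 coding nt. H1-4 (ENSG00000168298) lies on the plus strand at chr6:26156329-26157115, with 787 nt and 657 coding nt. H1-5 (ENSG00000184357) lies on the minus strand at chr6:27866792-27867588, with 797 nt and 678 coding nt. The stem-loop begins after 27 nt of 3′ UTR in H1-2, 35 nt in H1-3, 44 nt in H1-4 and 36 nt in H1-5, and is followed by 4 nt in H1-2 and 5 nt in the others. The coding sequences were 77.6% to 81.0% identical between pairs of genes, and the 16 nt of the stem-loop were identical in all 4.

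Shown here are the stem-loop and, for each gene, the 30 nt of the mRNA with the most counts in DoHH-2. In these stretches capitals mark nucleotides that each held at least 2% of the DoHH-2 counts on that mRNA. The stretch of H1-2 spans the stop codon and ends 11 nt before the stem-loop (chr6:26055771-26055800), that of H1-3 starts with the second base after the stop codon and ends 4 nt before the stem-loop (chr6:26234237-26234266), that of H1-4 begins with the last coding base and ends 18 nt before it (chr6:26157047-26157076), and that of H1-5 includes the last codon and ends 13 nt before it (chr6:27866826-27866855).
stem-loop of all 4: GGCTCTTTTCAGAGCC
H1-2: cCaaGaagaaataggcGaacgcctacTTct
H1-3: actggcggGacgTtcccCTTtgaaaATtTt
H1-4: gtagaaagTtCCTttggccaactgcTTaGa
H1-5: GaaGTagGaagctggcgTgtGaaaaccgca

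The same 30 nt, chosen on DoHH-2, were also rich in counts in GM01953, though each is only 3.76% to 4.10% of its mRNA. In H1-2 they held 2771 counts (32.1%) in DoHH-2 and 405 (57.0%) in GM01953. In H1-3 they held 1366 (35.7%) and 254 (67.2%), in H1-4 5452 (48.1%) and 473 (50.8%), and in H1-5 3278 (37.0%) and 199 (45.9%). Of the capital letters, 5 of 5 in H1-2, 8 of 8 in H1-3, 6 of 7 in H1-4 and 5 of 6 in H1-5 also held at least 2% of the counts in GM01953.

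H1-4 had the most counts of the 4 in both cell lines, and H1-3 the fewest. H1-4 had 11327 counts in DoHH-2 and 931 in GM01953, the 10th and 5th highest of all coding genes. H1-2 had 8639 and 711 counts, ranking 24 and 10, and H1-5 had 8856 and 434, ranking 21 and 27. H1-3 had 3831 and 378, ranking 45 and 30. Per kb of mRNA, the levels in DoHH-2 were 14393 counts for H1-4, 11818 for H1-2, 11112 for H1-5 and 4937 for H1-3. In GM01953 they were 1183 for H1-4, 973 for H1-2, 545 for H1-5 and 487 for H1-3, so the order was the same. Neighbours in this order differed beyond counting error except H1-5 and H1-3 in GM01953, where the ratio per kb was 1.12 (0.974–1.28). In DoHH-2 the closest pair was H1-2 and H1-5, at 1.06 (1.03–1.10).

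Set against the total of each line, and with all counts on the mRNA included, H1-2 and H1-4 took nearly the same share in both, and H1-5 a larger share in DoHH-2. H1-2 took 0.425% in each line, a ratio of 0.999 (0.926–1.08). H1-4 took 0.557% of the counts in each, a ratio of 1.001 (0.936–1.07). H1-5 took 0.436% and 0.260%, a ratio of 1.68 (1.52–1.85). H1-3 took 0.188% and 0.226%, a ratio of 0.833 (0.750–0.926), lower in DoHH-2. For the 4 genes together the ratio was 1.09 (1.05–1.14), but it ran from 1.01 to 1.17 with the other totals tried. Without H1-5 it turned to 0.969, and without H1-2, H1-3 or H1-4 it was 1.13 to 1.15, so its direction rested on H1-5. It was 1.33 with the deposited gene assignment and 1.65 at an FDR below 0.05. With positions counted in place of counts it fell to 0.323, or 1.16 with the number of DoHH-2 positions expected at the total count of GM01953. These values depend on which positions are counted. With the deposited gene assignment the ratio was 1.70 (1.51–1.90) for H1-2, 1.55 (1.28–1.88) for H1-3, 0.993 (0.928–1.06) for H1-4 and 2.06 (1.81–2.34) for H1-5. At an FDR below 0.05 it was 2.04 (1.77–2.36) for H1-2, 3.79 (2.66–5.38) for H1-3, 1.20 (1.11–1.30) for H1-4 and 2.92 (2.44–3.50) for H1-5. H1-3 thus turned from the lower to the higher share in DoHH-2, and only the ratio of H1-5 was above 1.5 in all 3 countings. Both of these countings leave out the 3′ UTR of H1-2, H1-3 and H1-5. With all counts, none of the 4 reached a 2-fold difference. Of 8326 coding genes with at least 20 counts, 34.4% were at least 2-fold higher in DoHH-2 and 14.1% in GM01953. Genes with no count in GM01953 were counted as higher in DoHH-2. The median ratio of the genes counted in both lines was 1.14, with quartiles of 0.658 and 2.01, so all 4 H1 ratios from all counts lay between the quartiles.

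**Figure D1:**
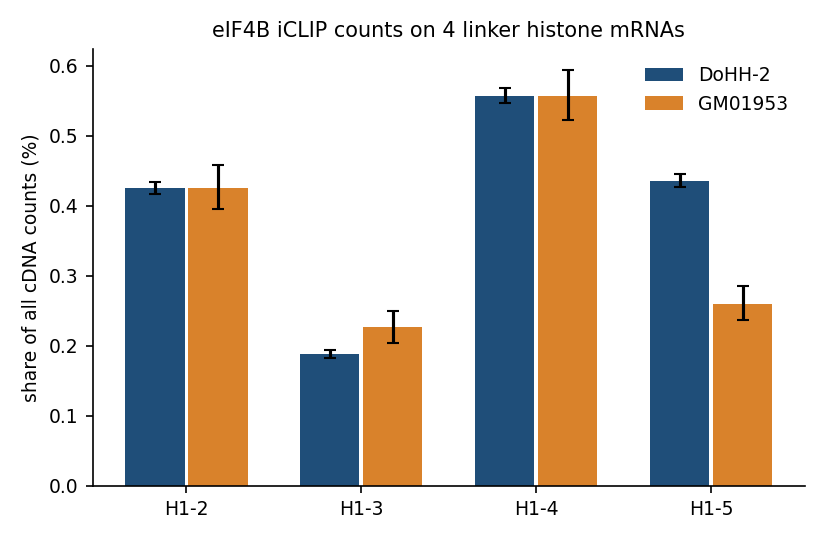
Share of all eIF4B cDNA counts (%, y axis) on each H1 mRNA in the pooled DoHH-2 and GM01953 tables; error bars are Wilson 95% intervals for counting error. H1-2 and H1-4 are level in both lines, H1-3 is at 0.188% and 0.226%, and H1-5 at 0.436% and 0.260%.

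Among themselves, which needs no total, the 4 mRNAs took different parts of the counts. H1-5 made up 27.1% (26.6–27.6) of the H1 counts in DoHH-2 and 17.7% (16.2–19.2) in GM01953, H1-3 11.7% (11.4–12.1) and 15.4% (14.03–16.9), H1-2 26.5% (26.0–26.9) and 29.0% (27.2–30.8), and H1-4 34.7% (34.2–35.2) and 37.9% (36.04–39.9). The lower share of H1-5 in GM01953 was also seen in coding sequence alone, 30.2% (29.5–30.8) against 22.9% (20.3–25.7), and from the stop codon on, 22.8% (22.1–23.6) against 12.1% (10.5–13.9). It was 27.0% against 17.8% without the highest position of each gene. For H1-3 the coding sequence gave 10.7% (10.3–11.2) and 11.1% (9.21–13.2), and the stretch from the stop codon on 12.3% (11.7–12.9) and 18.6% (16.7–20.8). H1-4 took a larger share of coding counts in GM01953, 33.9% (30.97–37.0) against 25.04% (24.4–25.7), and a smaller share from the stop codon on, 41.5% (39.0–44.2) against 49.4% (48.5–50.3). H1-2 took 32.1% (29.2–35.2) of coding counts in GM01953 against 34.1% (33.4–34.8) in DoHH-2, and 27.7% (25.4–30.1) against 15.48% (14.8–16.1) from the stop codon on. The mix also changed with the positions used. Over positions that the deposited tables assign to a gene, H1-2 had 25.2% of the H1 counts in DoHH-2 against 19.7% in GM01953, H1-3 8.06% (7.73–8.40) and 6.91% (5.76–8.28), H1-4 43.5% and 58.3%, and H1-5 23.2% and 15.04%, so that H1-2 turned to a lower share in GM01953, while for H1-3 the intervals overlapped.

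Along the mRNA, counts per nucleotide were highest around the stop codon in every H1 gene. Summed over the 4, the stop codon region had 42.4 counts per nt in DoHH-2, against 5.31 in the body of the coding sequence and 8.15 around the start codon. In GM01953 these densities were 4.12, 0.266 and 0.426. The stop codon region held 51.8% (50.7–52.8) of the H1-2 counts in DoHH-2 and 76.7% (73.4–79.6) in GM01953. For H1-3 it was 54.8% (53.3–56.4) and 75.9% (71.4–80.0), for H1-4 59.9% (59.0–60.8) and 68.0% (64.9–70.9), and for H1-5 45.2% (44.1–46.2) and 51.2% (46.5–55.8). The share was higher in GM01953 for all 4 genes, and H1-5 was the lowest in both lines. Among 753 other coding genes with at least 200 counts in DoHH-2 and 20 in GM01953, the median share around the stop codon was 3.64% and 1.56%, and 33.1% of the genes had the higher share in GM01953. These included 43 other histone genes, of which 41 had the higher share in GM01953, as H1 did. Without them it was 29.3% of the genes.

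The upstream regions made up the difference. The body of the coding sequence held 36.2% of H1 counts in DoHH-2 and 24.1% in GM01953. The start codon region held 10.1% and 7.01%. H1-5 had the largest share in the body, 46.0% and 36.6%. H1-3 had the largest share around the start codon in DoHH-2, 17.4% (16.2–18.6) against 7.41% (5.17–10.5) in GM01953, whereas H1-5 had 8.39% (7.83–8.98) and 12.2% (9.46–15.6) there. Counted from the 5′ end, 50% of the counts in DoHH-2 were reached at -48 nt from the last base of the stop codon in H1-2, -36 in H1-3, -1 in H1-4 and -99 in H1-5. In GM01953 this point lay further downstream in every gene, at 3, 21, 8 and -12 nt.

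**Figure D2:**
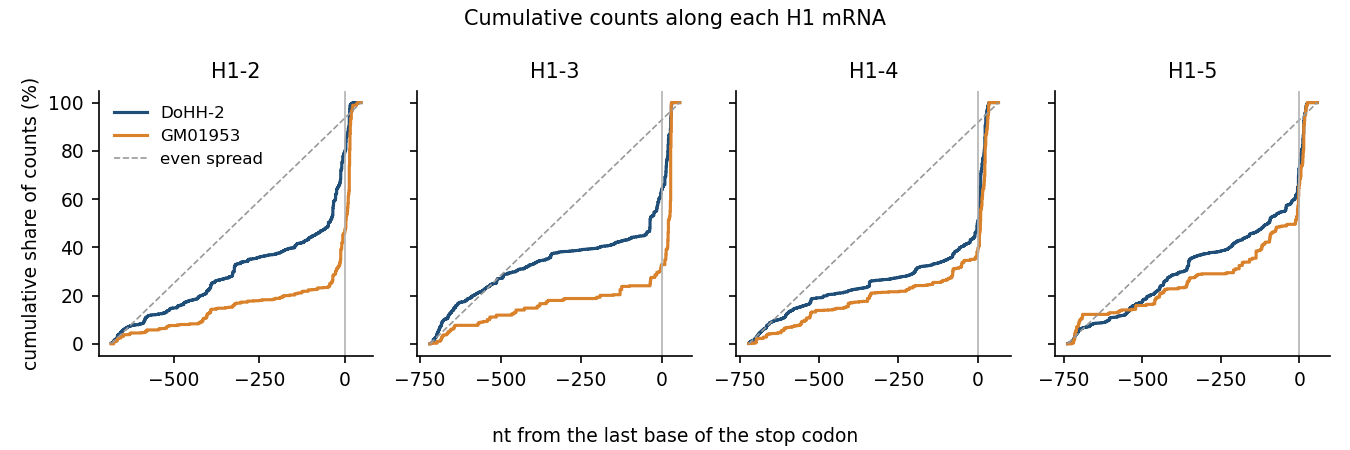
Cumulative share of the counts on each H1 mRNA (%, y axis) against distance from the last base of the stop codon (nt, x axis; grey line at 0) in DoHH-2 and GM01953; the dashed line is an even spread over the mRNA. The curves rise steeply near the stop codon, and 50% is reached between -99 and -1 nt in DoHH-2 and between -12 and 21 nt in GM01953.

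Upstream of the stem-loop, the 50 nt that precede it held 43.9% of the H1 counts in DoHH-2 and 63.5% in GM01953. The last 30 nt held 23.9% and 45.1%. Of the H1 positions with a count, 7.42% and 24.3% lay in the 50 nt. In DoHH-2 the share of counts in the 50 nt was 35.7% (34.7–36.7) in H1-2, 43.7% (42.1–45.2) in H1-3, 53.5% (52.6–54.4) in H1-4 and 39.5% (38.5–40.5) in H1-5. In GM01953 it was 67.7% (64.1–71.0), 70.4% (65.6–74.8), 63.8% (60.7–66.8) and 50.2% (45.5–54.9). H1-3 differed from the others in the last 10 nt before the stem-loop, which held 13.2% (12.2–14.3) of its counts in DoHH-2 and 47.4% (42.4–52.4) in GM01953. In H1-2 these 10 nt held 0.741% and 5.49%, in H1-4 0.486% and 1.07%, and in H1-5 0.260% in DoHH-2 and none in GM01953.

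Within the stem-loop itself no count fell in DoHH-2 on any of the 4 mRNAs. In GM01953 there were 8 counts, all on H1-2, which is 1.13% (0.571–2.20) of its counts, and none on the others. The last nucleotide with a count lay 24 nt before the end of the mRNA in H1-2, 23 nt in H1-3, 30 nt in H1-4 and 28 nt in H1-5 in DoHH-2. It lay 10, 26, 30 and 31 nt before the end in GM01953. By the annotated ends, at most 21 nt remain from the first base of the stem-loop on. The 8 counts on H1-2 lay within this stretch. How many cDNAs that began there were too short to be kept was not tested.

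The study used RNAs of the H1 3′ end in binding assays, named His1-FL, His1-ssRNA and His1-SL. His1-SL is the stem-loop with the end of the mRNA, 21 nt that H1-3, H1-4 and H1-5 share, shown for the part of the mRNA that it covers.
His1-SL: GGCUCUUUUCAGAGCCACCCA
His1-ssRNA, of 39 nt, matched only H1-4, from the 6th base after its stop codon to the base before the stem-loop. That stretch held 4914 counts on H1-4 in DoHH-2 (43.4%) and 508 in GM01953 (54.6%). The nucleotides of His1-SL held no count in either line on any of the 3 genes.

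At single nucleotides, the same position was the highest in both cell lines for H1-2, H1-3 and H1-5. The highest position of H1-2, chr6:26055774, a T 13 nt after the stop codon and 15 nt before the stem-loop, had 379 counts (4.39%) in DoHH-2 and 74 (10.4%) in GM01953. The highest position of H1-3, chr6:26234240, a T 8 nt before the stem-loop, had 165 counts (4.31%) and 85 (22.5%), and the next highest in both lines was the T 2 nt further on, with 162 and 45. Both belong to the capitals of the last bases in the H1-3 stretch shown above. In H1-5 the highest position was chr6:27866835, a G 14 nt after the stop codon, with 467 counts (5.27%) and 45 (10.4%).

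H1-4 had a different highest position in each line, and whether these positions differ beyond counting error was not tested. The T at chr6:26157059, 9 nt after the stop codon, had 605 counts in DoHH-2 (5.34%). In GM01953 it had 41 (4.40%) and was the 4th highest. The T at chr6:26157073, 23 nt after the stop codon, had 566 (4.997%) and 62 (6.66%). The highest position took a larger share in GM01953 in all 4 genes, as it did in 99.7% of the 753 other genes, in a table of lower depth.

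**Figure D3:**
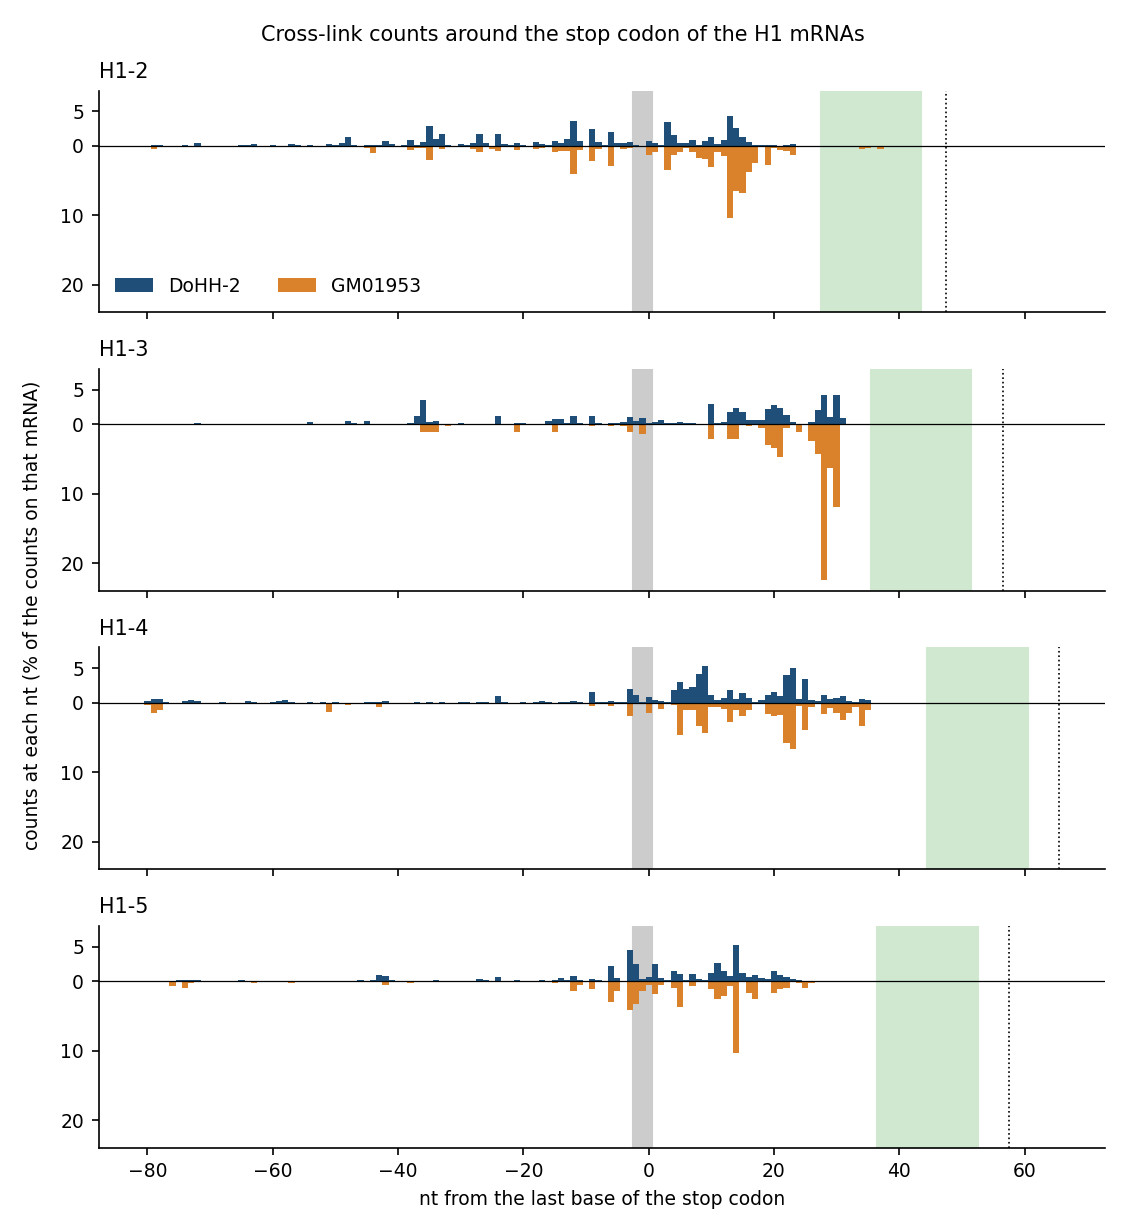
Counts at each nucleotide (% of the counts on that mRNA, y axis) from 80 nt before the last base of the stop codon to the end of each H1 mRNA (nt, x axis); DoHH-2 is drawn upward and GM01953 downward. Grey marks the stop codon, green the stem-loop and the dotted line the end of the mRNA; counts end before the stem-loop except for 8 on H1-2 in GM01953, and the highest bar is the 22.5% of H1-3 in GM01953.

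Nearly every position with a count in GM01953 also had one in DoHH-2. This was so for 136 of 141 positions in H1-2, 67 of 73 in H1-3, 155 of 158 in H1-4 and 116 of 117 in H1-5. DoHH-2 had a count at 81.4%, 62.9%, 81.8% and 80.9% of the nucleotides of these mRNAs, so most nucleotides were already covered. Of the 10 highest positions, 5, 7, 8 and 6 were shared in the same order of genes. Pearson's r of the per-nucleotide counts was 0.765 in H1-2, 0.708 in H1-3, 0.875 in H1-4 and 0.818 in H1-5, over 731 to 797 nucleotides that share libraries and sequence. Spearman's rho was 0.471, 0.351, 0.449 and 0.438. At the depth of GM01953, the DoHH-2 counts of the 4 genes would be expected at 950 positions, whereas GM01953 had counts at 489. For the whole tables the same numbers were 131186 and 78474.

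Within the coding sequence, which held 56.5% of H1 counts in DoHH-2 and 37.9% in GM01953, counts were denser towards its end. Divided into 3 equal parts, the last part took 51.6% and 56.6% of the coding counts. H1-3 in DoHH-2 had the largest share in the first part, 39.1%, with 16.7% in the middle and 44.3% in the last. Away from the last 50 coding nt, the highest nucleotide in DoHH-2 was the same C in H1-2, H1-4 and H1-5, in an aligned CTC codon, a codon for leucine. It had 150 counts in H1-2 (codon 107), 176 in H1-4 (codon 107) and 156 in H1-5 (codon 110), against means of 6.16, 6.00 and 6.76 counts per nt. In H1-3 the aligned nucleotide (codon 108) had 29 counts, the second highest, against a mean of 2.16. In GM01953 it had 4, 8, 1 and 0 counts in H1-2, H1-4, H1-5 and H1-3. The 21 nt around it are shown with that C in capitals, at chr6:26056100-26056120, chr6:26234602-26234622, chr6:26156699-26156719 and chr6:27867192-27867212, since these stretches differ at few letters.
H1-2: ctcctttaaaCtcaacaagaa
H1-3: ctccttcaaaCtcaacaagaa
H1-4: ttccttcaaaCtcaacaagaa
H1-5: ctcctttaaaCtcaacaagaa

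Lysine codons are frequent in H1, whose tails bind DNA. They made up 247 of 879 codons (28.1%), and took 27.4% (26.8–28.0) of the coding counts in DoHH-2 and 27.4% (24.6–30.3) in GM01953. The last base of the codon took 50.1% and 50.7% of the coding counts. For each kind of base in DoHH-2 except A, counts per nt were 13.2 for G at the last base against 5.77 at the first and 4.16 at the middle base, 13.3 for T against 10.8 and 10.4, and 9.15 for C against 10.3 and 4.81. For A they were 3.01, against 4.06 at the first base and 1.96 at the middle base. G thus had the largest excess at the last base.

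The base at the counted position was most often T relative to its frequency. T makes up 14.01% of the nucleotides of these mRNAs, and took 29.1% of their counts in DoHH-2 and 36.1% in GM01953. A took 12.04% and 12.96% of the counts and 29.2% of the nucleotides. From the stop codon on, T took 41.0% in DoHH-2 and 45.7% in GM01953 of the counts and 20.7% of the nucleotides. UV cross-links some bases more readily than others, and its part in these shares was not tested.

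The deposited tables also give each position a gene and a false discovery rate (FDR), which the study's binding sites rest on. For H1-2, H1-3 and H1-5 the positions after the stop codon and before the start codon were listed without a gene, with an FDR of 1. In H1-4 the positions after the stop codon had a gene, and those before the start codon lacked one only from 38 nt upstream of it on. These held 316 of the 901 counts before its start codon in DoHH-2 and 19 of 38 in GM01953. The counts without a gene were 26.4% of H1-2, 46.8% of H1-3, 33.6% of H1-5 and 2.79% of H1-4 in DoHH-2, and 56.7%, 71.4%, 45.9% and 2.04% in GM01953. Over the 4 genes this was 22.6% and 36.3%, against 10.3% and 15.98% of all counts in the tables. The highest positions of H1-2, H1-3 and H1-5 named above are among them. Of the 5 highest positions in DoHH-2, 3 in H1-2, 4 in H1-3, 3 in H1-5 and none in H1-4 had no gene.

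**Figure D4:**
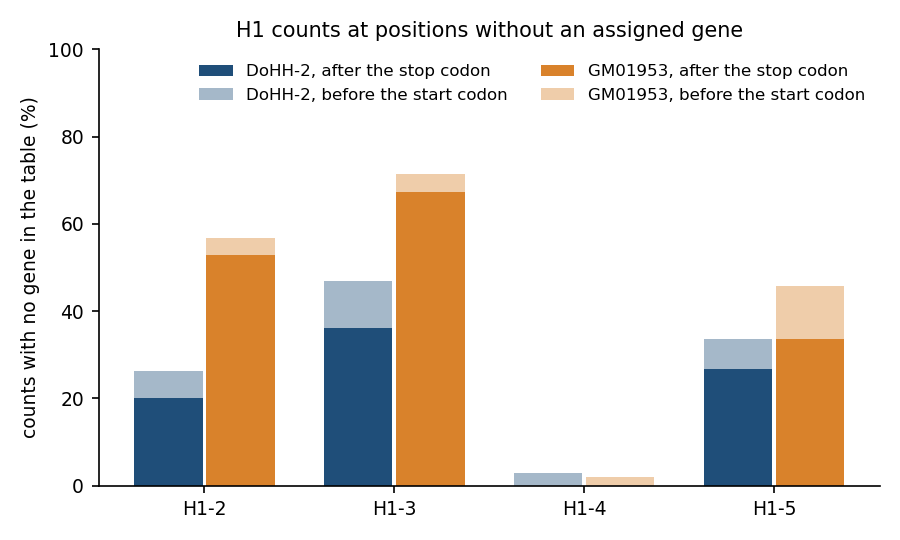
Share of the counts on each H1 mRNA (%, y axis) at positions that the deposited tables list without a gene, after the stop codon (dark) and before the start codon (light), in DoHH-2 (blue) and GM01953 (orange). The total reaches 71.4% for H1-3 in GM01953 and is 2.79% or less for H1-4.

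Positions with an FDR below 0.05 held 3862 counts of H1-2 in DoHH-2, 1157 of H1-3, 7676 of H1-4 and 3401 of H1-5, and 198, 32, 669 and 122 in GM01953. All 4 genes thus exceeded 20 counts at sites in both lines, which 33.6% of coding genes with a count did in DoHH-2 and 6.46% in GM01953. Sites held 67.8% of the counts of H1-4 in DoHH-2 and 71.9% in GM01953, the highest of the 4. They held 44.7% and 27.8% of H1-2, 30.2% and 8.47% of H1-3, and 38.4% and 28.1% of H1-5. Sites were 17.5% of the H1 positions in DoHH-2 and 23.5% in GM01953, against 21.5% and 36.6% of all positions. In H1-2, H1-3 and H1-5 the positions after the stop codon and before the start codon had no gene and were never sites. In H1-4 those after the stop codon could be sites. The shares of counts and of positions at sites both carry this limit.

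Other linker histone genes had few counts. H1-10, a replication-independent subtype with a polyadenylated mRNA, had 283 counts in DoHH-2 and 37 in GM01953. Its ratio of shares was 0.629, and 5.65% and 5.41% of its counts lay around the stop codon. Per kb it had 187 and 24.4 counts. H1-1, in the same cluster as the 4 genes, had 10 and 1, and the testis subtype H1-6 had 6 and 1. H1-7 and H1-8 had no count, which allows up to 3 counts in each line.

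Genes for the processing and decay of histone mRNA had counts on all 16 listed mRNAs in DoHH-2 and on 14 in GM01953. SLBP, which binds the stem-loop, had the most, 402 and 41. The decapping enzyme gene DCP2 had 258 and 4, CPSF2 of the cleavage complex 229 and 9, and UPF1 177 and 15. EXOSC10 of the nuclear exosome had 135 and 18, the exonuclease gene XRN1 122 and 2, CPSF3, the nuclease of the cleavage complex, 110 and 7, and CASP8AP2, which acts in histone gene expression, 110 and 7. The other 8, NPAT, SYMPK, TUT7, LSM10, LSM1, ZNF473, LSM11 and ERI1, had 20 to 87 counts in DoHH-2 and 0 to 9 in GM01953. Of the 16, 6 (37.5%) were counted as at least 2-fold higher in DoHH-2, near the 34.4% of all genes, and none in GM01953, beside 14.1%. Genes with no count in GM01953 were counted as higher, in the list and over all genes. The 6 were LSM11 and ZNF473, with no count in GM01953, LSM1, DCP2 and XRN1, with 2 to 4 counts there, and CPSF2, with 9. An absent count allows up to 3 counts. A 2-fold difference is thus not established for LSM11, with 22 counts in DoHH-2, and ZNF473, with 32. The median ratio of the 14 with a count in both lines was 1.25, beside 1.14 over all genes. Per kb, the median of the list in DoHH-2 was 18.6 counts. The abundant mRNAs ACTB and GAPDH had 6332 and 1180 counts in DoHH-2 and 1059 and 159 in GM01953, ratios of 0.492 and 0.610.

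Compared with the core histone mRNAs of chromosome 6, the H1 mRNAs summed had fewer counts per kb in DoHH-2. With all counts included, their summed counts also differed less between the lines. Per kb, H1 had 10564 counts in DoHH-2, against 13539 for 12 H2AC genes, 11873 for 15 H2BC genes, 16128 for 10 H3C genes and 25689 for 12 H4C genes. H1-3, at 4937, lowered the sum. Without it the other 3 had 12450, above H2BC, and H1-4 alone, at 14393, was above H2AC and H2BC. In GM01953 H1 had 794, against 784, 716, 870 and 1299. The ratio of shares was 1.09 (1.05–1.14) for H1, 1.42 (1.38–1.46) for H2AC, 1.36 (1.33–1.40) for H2BC, 1.52 (1.48–1.57) for H3C and 1.63 (1.59–1.67) for H4C. For H1 it was 1.33 with the deposited gene assignment and 1.65 at an FDR below 0.05. The core classes were not counted in these 2 ways. With all counts, the interval of the summed H1 genes did not overlap those of the others, but the sum covers single-gene ratios from 0.833 to 1.68. H1-5 alone, at 1.68 (1.52–1.85), was above the ratio of each core class, though its interval overlapped those of H3C and H4C. The highest genes of the 4 core classes in DoHH-2 were H2AC16, H2BC5, H3C2 and H4C8.

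The share of counts in the 50 nt before the stem-loop was also lowest for H1 in DoHH-2. Medians were taken over genes with more than 20 counts in both lines and a stem-loop found by its letters, which left out H2BC10 and H4C13. They were 41.6% for H1, 57.0% for H2AC, 55.5% for H2BC, 47.7% for H3C and 54.6% for H4C. In GM01953 the medians were 65.7%, 73.5%, 75.2%, 55.6% and 71.5%, with H3C the lowest. The H1 genes, at 35.7% to 53.5% in DoHH-2, lay within the range of the H2BC and H3C genes. The H1 mRNAs are longer, with 731 to 797 nt, against 386 nt (H4C7) to 569 nt (H2BC1) in the core classes. The same 50 nt are thus a smaller part of an H1 mRNA, and the part of length in these shares was not tested.

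**Figure D5:**
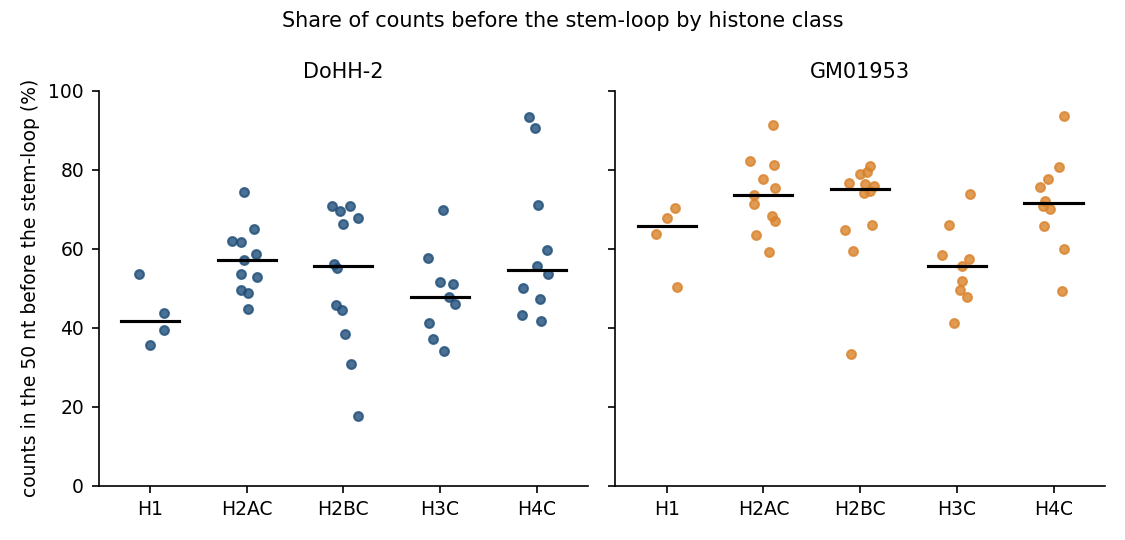
Share of counts in the 50 nt before the stem-loop (%, y axis) in DoHH-2 and GM01953. Points are genes of each histone class with a stem-loop found and more than 20 counts in both lines, and bars are class medians. The H1 median is 41.6% in DoHH-2, the lowest class, and 65.7% in GM01953, above H3C. H1 mRNAs are longer than those of the core classes.

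By the distribution of density over 5 regions of the mRNA, the 5 coding genes most like the summed H1 genes were all core histone genes. These were H2AC6, H2BC15, H4C2, H2BC8 and H2BC14, at distances of 0.0628 to 0.0809 on a scale where 0 is the same distribution and 1 no overlap. The median distance over 753 genes was 0.667. Of the summed regional densities, the stop codon region held 67.0% of H1 in DoHH-2 and 83.6% in GM01953, and 74.5% and 85.8% of H2AC6, the nearest gene.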

How the data were processed

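The cDNA counts per cross-link position were deposited by the authors as whole numbers, not normalized, as 1 table per cell line of pooled replicates. The authors removed PCR duplicates with BBMap, demultiplexed with Je, mapped reads to GRCh38 with HISAT2 and counted with iCount, whose permutations within genes gave the deposited FDR (an adjusted p-value); versions are not given in the sources used here. The tables were tied to the cell lines by their file names.

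Positions listed for several genes were counted once. Positions were placed on mRNAs by strand and coordinate with GENCODE release 44, so that counts without a gene in the tables were included. Each coding gene was represented by its Ensembl canonical transcript. The position column was read as counted from 0. The share of A at the counted base had its minimum at that base on both strands (10.2% plus, 9.09% minus, DoHH-2 sites of chromosome 6), whereas a shift by 1 nt would move it in opposite directions. Of the 4 mRNAs, 5, 0, 7 and 12 positions (H1-2, H1-3, H1-4, H1-5) begin a 31-nt word found elsewhere in the genome. No count lay on the opposite strand. Regions around codons reach 50 nt to each side. Likeness is the mean over both tables of the summed absolute differences in regional density shares, divided by 2, with regions under 10 nt left out.

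Python 3.11.15, pandas 2.3.3, numpy 2.4.6 and scipy 1.17.1 were used. Counting was tested on simulated data, placed with the same transcripts, regions and coordinates, so the test could not show an error in these. The named genes were the 4 H1 genes, other linker histones (1 of them not reported here), 16 genes of histone mRNA processing and decay, ACTB, GAPDH, the highest gene of each core class and the 5 most alike. The members and lists were chosen with earlier results of these data known. The aligned coding site and the 30-nt stretches were chosen after their values were seen. With 1 pooled table per line, replicates could not be left out in turn and no test was made.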

Additional observations from a re-analysis of the deposited data

How the results depend on the processing

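No paired analysis was possible because each table pools the replicates of a cell line. Of the alternative values for the shares and ratios, 17 stayed within counting error of the reported value, 55 moved beyond it and 4 reversed. The mix of the 4 mRNAs is not among these. For the shares and ratio of the summed genes, keeping only positions with a unique 31-nt word gave values within counting error. The H1 share of counts, for DoHH-2 and GM01953 in turn, was 1.78% and 1.77% of the counts inside coding gene spans (ratio 1.01), 2.01% and 1.71% of those outside replication-dependent histone genes (ratio 1.17), and 1.81% and 1.10% at an FDR below 0.05 (ratio 1.65, and 3.79 for H1-3 alone, reversed). It was 1.24% and 0.935% with the deposited gene assignment (ratio 1.33, and 1.55 for H1-3 alone, reversed), 1.53% and 1.31% without each gene's highest position (ratio 1.17). It was 1.05% and 0.911% without H1-4 (ratio 1.15), 1.18% and 1.04% without H1-2, 1.42% and 1.24% without H1-3 (ratio 1.14), and 1.17% and 1.21% without H1-5, which reversed the ratio to 0.969. With positions in place of counts it was 0.201% and 0.623%, reversing the ratio to 0.323. With the number of DoHH-2 positions expected at the total count of GM01953 the ratio was 1.16, although the whole DoHH-2 table would still cover 131186 positions against 78474. The deposited assignment and the FDR leave out the 3′ UTR of H1-2, H1-3 and H1-5.

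The stop codon share was 44.04% and 52.6% with 25 nt to each side, 71.3% and 85.4% at an FDR below 0.05, 13.2% and 32.5% of positions, 50.7% and 64.9% without the highest positions, and 49.6% in DoHH-2 without H1-4. The share before the stem-loop was 23.9% and 45.1% with 30 nt, 54.8% and 77.4% at an FDR below 0.05, 7.42% and 24.3% of positions, and 38.7% in DoHH-2 without H1-4. It stayed higher in GM01953 under each of these. At an FDR below 0.05 both shares lack the 3′ UTR of H1-2, H1-3 and H1-5. H1-4 then holds 7676 of 16096 counts in DoHH-2 and 669 of 1021 in GM01953. The lysine codon share was 31.7% and 37.0% at an FDR below 0.05, and 37.7% and 36.1% with positions read as counted from 1, so it depends on the base to which a count is given. It was 26.5% of positions and 26.5% of counts without H1-4 in DoHH-2. Leaving out single genes, the alternative countings of the gene-by-gene ratios, the expected positions and the mean of the 4 genes were added after the data were seen. The cause of the other shifts was not tested. Depth limits GM01953, where single positions rest on few counts.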

Other observations

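Upstream of the annotated mRNA start, within 100 nt, H1-2 had 90 counts at 7 positions in DoHH-2 and 8 in GM01953. H1-4 had 49 counts at 4 positions in DoHH-2, H1-3 had 9 and H1-5 had 7, and GM01953 had none for these 3 genes. Downstream of the annotated ends, within 100 nt, there were 2 counts for H1-2 and 2 for H1-5 in DoHH-2, and none for the other genes or in GM01953.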
